A study of Mus musculus with 12 samples.

Results

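The genes described here are 32 mouse genes of cholesterol and fatty acid synthesis that are known targets or parts of the sterol regulatory element-binding protein (SREBP) system. They were taken by name from a list of SREBP-controlled genes, with no threshold on their values, and all 32 were among the 47643 genes of the deposited count tables. That choice was made with earlier results of these data known. Of them, 18 encode enzymes of sterol synthesis, 9 encode enzymes of fatty acid synthesis and desaturation, and 5 encode regulators or lipid handling proteins. Levels were measured in C3H/10T1/2 cells, which were derived from mouse embryos, look like fibroblasts, can form cartilage, bone or fat, and are listed under sarcoma in the labels. RNA was collected 3 days after transient, non-viral transfection with 0.5 µg of plasmid per square cm, and the labels name no selection of the cells that took up plasmid. The groups were pH_BMP2ADV20a, pH_BMP2ADV148b, pH_BMP2ADV590 and pH_BMP2ADV, with 3 libraries each. By their names and the series text, the first 3 are hybrid vectors that pair bone morphogenetic protein 2 (BMP2) with miR-20a, miR-148b or miR-590, and pH_BMP2ADV carries BMP2 without an added miRNA. Every group therefore carried BMP2, and cells without plasmid were not analysed here.

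SREBPs are made as precursors that sit in the membrane of the endoplasmic reticulum. When membrane cholesterol is low, they travel to the Golgi apparatus, are cut there, and the released part enters the nucleus and switches on the genes of sterol and fatty acid synthesis. SREBP2 acts mainly on sterol synthesis and SREBP1c mainly on fatty acid synthesis. In connective tissue cells that divide and secrete matrix, both routes supply membrane lipid.

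Sequencing depth was 9236431 to 14727288 gene counts per library, and 17086 to 18055 genes had a count above 0. The fibroblast markers Col1a1, Col1a2, Col3a1, Thy1, Vim, Pdgfrb and S100a4 were all detected, with a summed level of 18358 to 21572 CPM (counts scaled to a common library total). The chondrocyte markers Sox9, Col2a1, Col10a1, Hapln1 and Acan were also well detected, and their list summed to 2865 to 5808 CPM. Matn1, also on that list, reached at most 0.105 CPM from 1 count and was not tested. Markers of 4 further cell types were low: hepatocyte markers summed to at most 0.424 CPM with Ttr and Serpina1a at 0, macrophage markers to 1.82 to 4.99 CPM with Adgre1 at 0, epithelial markers to 1.17 to 3.18 CPM with Krt8 and Cldn4 at 0, and endothelial markers to 0.807 to 1.84 CPM with Cdh5 at 0. Adipocyte markers summed to 30.9 to 62.3 CPM with Plin1 at 0. The same-group pair that differed most was pH_BMP2ADV590 replicates 1 and 2, with a chi-square of 29.4 per gene, against 6.38 to 19.5 for all other pairs. Calls in pH_BMP2ADV590 are therefore also given without replicate 2, and it is said where leaving out replicate 1 ended a call. As a check of the labels, Mir148b held 211, 215 and 204 counts in the pH_BMP2ADV148b libraries and 0 in the other 9.

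The clearest change was in the fatty acid enzymes of pH_BMP2ADV590. Scd1 and Scd2, which place a double bond in saturated fatty acids, Fasn, which builds palmitate, and Acss2, which makes acetyl-CoA from acetate, were higher than in pH_BMP2ADV. Mid1ip1, a protein that activates acetyl-CoA carboxylase, was lower. Together 5 of the 32 genes passed an adjusted p of 0.05 in the edgeR quasi-likelihood test. Among all 13229 genes tested, 4.37% were called as higher and 3.89% as lower in this comparison. At an unadjusted p under 0.05 the count was 12 of 32, and 21.2% of all genes tested. The median log2 fold change of the 32 genes was 0.18, against 0.00 for all genes tested, and 27 of the 32 had a positive value, against 50.3% of all genes. In pH_BMP2ADV148b 1 of the 32 was called, Mid1ip1, as lower, where 0.212% of all genes were called as higher and 0.0378% as lower. In pH_BMP2ADV20a none of the 32 was called with edgeR, DESeq2 or limma-voom, and 0.0983% of all genes were called as higher and 0.378% as lower. At an unadjusted p under 0.05 the count in pH_BMP2ADV20a was 4 of 32 (12.5%), against 9.87% of all genes tested. The 3 comparisons share the pH_BMP2ADV libraries, so their values are set side by side and not counted as separate evidence.

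**Figure D1:**
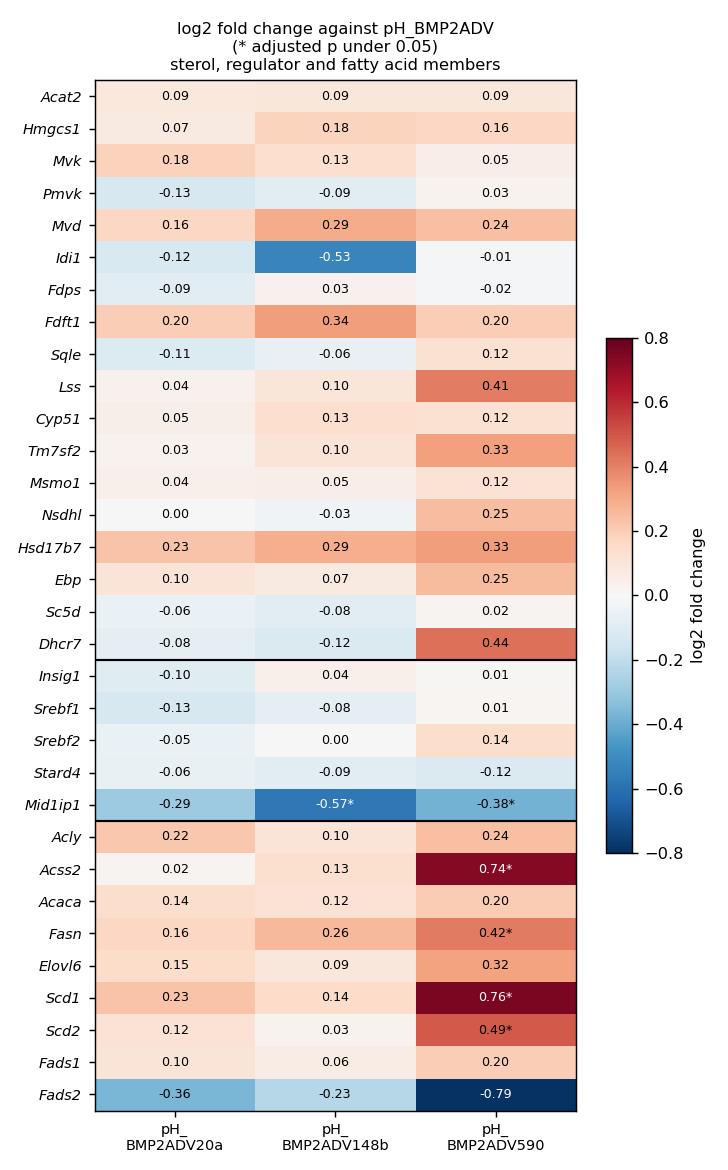
Log2 fold change of the 32 genes in each hybrid group against pH_BMP2ADV. Columns are the hybrid groups, rows are the sterol enzymes in pathway order, then regulators, then fatty acid enzymes, separated by black lines; colour and printed value give the log2 fold change and an asterisk marks an adjusted p under 0.05. The darkest red cells are Scd1 (0.76) and Acss2 (0.74) in pH_BMP2ADV590, and Mid1ip1 is blue in all 3 columns; the dark blue Fads2 cell (-0.79) rests on few counts and did not pass the test.

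Scd1 (ENSMUSG00000037071, chr19:44394455-44407879, minus strand, GRCm38) had 129.9, 154.9 and 126.7 CPM in the pH_BMP2ADV590 libraries, 87.6, 91.3 and 107 CPM in pH_BMP2ADV20a, 84.0, 84.1 and 101 CPM in pH_BMP2ADV148b, and 82.4, 80.1 and 81.2 CPM in pH_BMP2ADV. The pH_BMP2ADV590 libraries were the 3 highest of the 12, and the pH_BMP2ADV libraries were the 3 lowest. Scd1 was 1.69-fold higher in pH_BMP2ADV590 than in pH_BMP2ADV, with a log2 fold change of 0.76 (SE 0.0999, 95% interval 0.55 to 0.96, adjusted p = 3.28e-05, edgeR). Scd2 (ENSMUSG00000025203, chr19:44293674-44306864, plus strand) lies on the same chromosome as Scd1 and encodes a second stearoyl-CoA desaturase. Its level was 574, 607 and 613 CPM in pH_BMP2ADV590, 426, 488 and 473 CPM in pH_BMP2ADV20a, 404, 434 and 466 CPM in pH_BMP2ADV148b, and 427, 434 and 416 CPM in pH_BMP2ADV. Again the pH_BMP2ADV590 libraries were the 3 highest of all 12, while the other groups overlapped one another. The log2 fold change of Scd2 in pH_BMP2ADV590 against pH_BMP2ADV was 0.49 (SE 0.0752, adjusted p = 0.000158, edgeR), a 1.40-fold difference. Both desaturases kept their call without pH_BMP2ADV590 replicate 2, at log2 fold changes of 0.66 for Scd1 (adjusted p = 0.000103) and 0.48 for Scd2 (adjusted p = 0.000314).

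Fasn, fatty acid synthase (ENSMUSG00000025153, chr11:120805846-120824547, minus strand), had 216, 264 and 235 CPM in pH_BMP2ADV590, 208, 196 and 196 CPM in pH_BMP2ADV20a, 197, 226 and 216 CPM in pH_BMP2ADV148b, and 189, 171 and 175 CPM in pH_BMP2ADV. The pH_BMP2ADV libraries were the 3 lowest of the 12, and pH_BMP2ADV590 overlapped pH_BMP2ADV148b. Its log2 fold change in pH_BMP2ADV590 against pH_BMP2ADV was 0.42 (SE 0.0840, adjusted p = 0.00239, edgeR), and 0.34 without pH_BMP2ADV590 replicate 2 (adjusted p = 0.0144). Acss2, the cytosolic and nuclear acetyl-CoA synthetase (ENSMUSG00000027605, chr2:155517948-155585724, plus strand), was scarce. It had 10.8, 10.7 and 11.4 CPM in pH_BMP2ADV590, 7.55, 5.84 and 6.65 CPM in pH_BMP2ADV20a, 5.02, 7.74 and 8.83 CPM in pH_BMP2ADV148b, and 7.17, 5.01 and 7.54 CPM in pH_BMP2ADV, from 49 to 153 counts. The pH_BMP2ADV590 libraries were the 3 highest of the 12. The log2 fold change of Acss2 was 0.74 (SE 0.225, 95% interval 0.27 to 1.2, adjusted p = 0.0429, edgeR). That call was lost when any 1 of the pH_BMP2ADV590 or pH_BMP2ADV libraries, pH_BMP2ADV20a replicate 3 or pH_BMP2ADV148b replicate 2 was left out. Over the 12 fits without 1 library its log2 fold change was 0.57 to 0.84, with an adjusted p up to 0.204. It was also lost when only the 2 groups were fitted (adjusted p = 0.05002). Acss2 overlaps Gss on the opposite strand, and Gss had a log2 fold change of 0.13 in the same comparison (adjusted p = 0.624, edgeR).

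**Figure D2:**
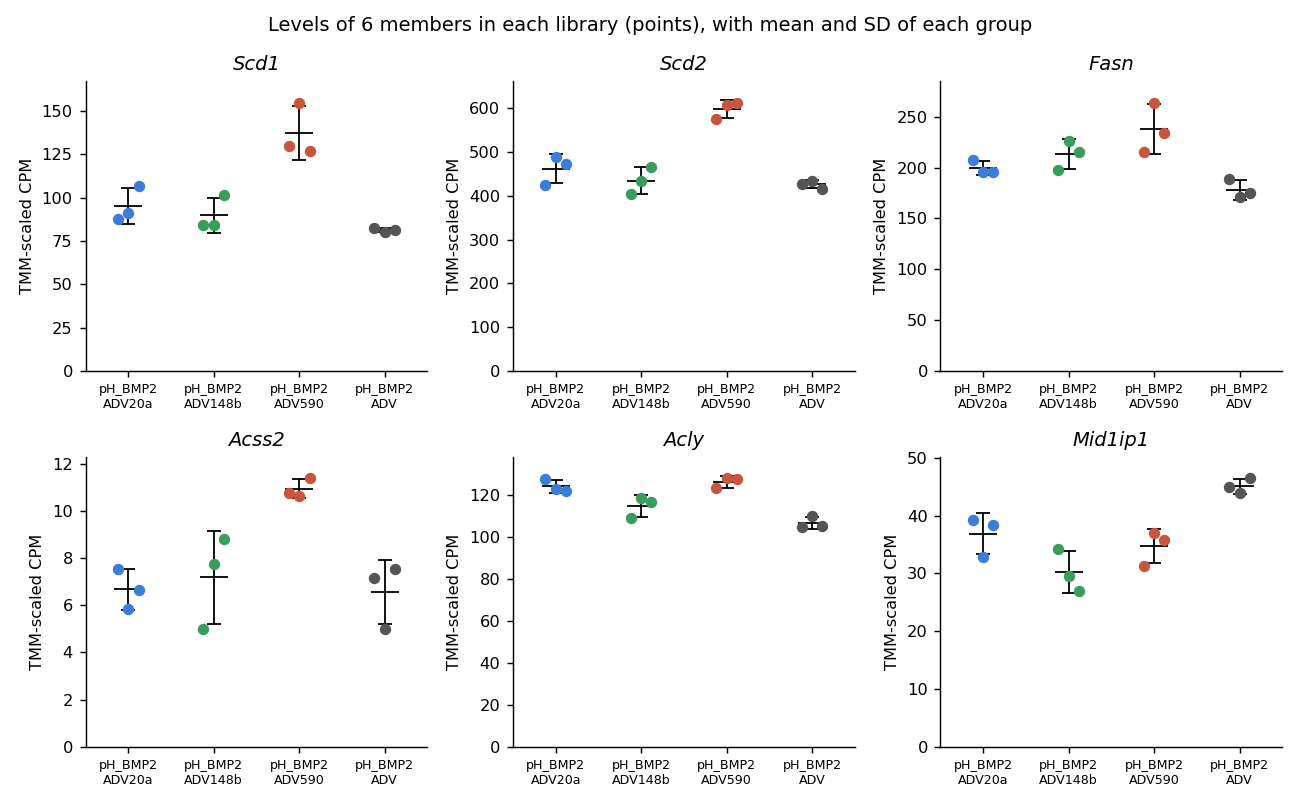
Levels of 6 genes in each library. The vertical axes give TMM-scaled CPM and start at 0, points are libraries, and horizontal bars with whiskers are the mean and SD of 3 libraries per group. The pH_BMP2ADV590 points of Scd1, Scd2 and Acss2 lie above all other points, those of Fasn and Acly overlap another hybrid group, and the pH_BMP2ADV points of Mid1ip1, at 43.8 to 46.5 CPM, lie above all hybrid points.

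The remaining fatty acid enzymes did not pass the test in pH_BMP2ADV590. Acly, which makes cytosolic acetyl-CoA from citrate, had 123, 128 and 127 CPM in pH_BMP2ADV590 and 105, 109.7 and 105 CPM in pH_BMP2ADV, with no overlap (log2 fold change 0.24, SE 0.0766, adjusted p = 0.0515, edgeR). It passed with DESeq2 (adjusted p = 0.0181) and limma-voom (0.0491). Elovl6, which lengthens palmitate, had 49.3, 51.4 and 57.9 CPM in pH_BMP2ADV590 and 40.4, 46.7 and 39.6 CPM in pH_BMP2ADV, also with no overlap, at a log2 fold change of 0.32 (adjusted p = 0.0748, edgeR). Acaca, the acetyl-CoA carboxylase that makes malonyl-CoA, averaged 76.9 ± 7.61 CPM in pH_BMP2ADV590 and 66.7 ± 8.41 CPM in pH_BMP2ADV (SD, n = 3 each), and these groups overlapped. The desaturase Fads1, which acts on polyunsaturated fatty acids, averaged 145 ± 22.3 CPM in pH_BMP2ADV590 and 127 ± 3.604 CPM in pH_BMP2ADV. Its 3 values in pH_BMP2ADV590 were 119.8, 161 and 155 CPM, and without replicate 1 of that group its log2 fold change was 0.32 (adjusted p = 0.0276, edgeR), against 0.20 with it (0.233). Fads2, the other polyunsaturated desaturase, was close to the detection limit at 0.986 to 2.40 CPM in pH_BMP2ADV590 and 1.205 to 4.66 CPM in pH_BMP2ADV (11 to 63 counts over the 12 libraries), and its interval of -1.78 to 0.21 allows a change either way. In all, 4 of the 9 fatty acid enzymes were called, all as higher, where 4.37% of all genes tested were. A positive value was found for 8 of the 9, against 50.3% of all genes. Their median log2 fold change was 0.32, against 0.00 for all genes.

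The promoters of the called genes that RefSeq lists are shown with the letters of 3 known elements in capitals: the core TCACNCCAC of a sterol element, CCAAT, the box bound by NF-Y, and CACGTG, an E-box, each searched on both strands. Hmgcs1 is added because it was the only gene of the 25 matched to a promoter that held the sterol core. Each sequence runs 5′ to 3′ on the gene's strand (RefSeq, GRCm38.p6), from 250 bases before to 50 bases after a transcript start.
Fasn, chr11:120824498-120824797, minus strand: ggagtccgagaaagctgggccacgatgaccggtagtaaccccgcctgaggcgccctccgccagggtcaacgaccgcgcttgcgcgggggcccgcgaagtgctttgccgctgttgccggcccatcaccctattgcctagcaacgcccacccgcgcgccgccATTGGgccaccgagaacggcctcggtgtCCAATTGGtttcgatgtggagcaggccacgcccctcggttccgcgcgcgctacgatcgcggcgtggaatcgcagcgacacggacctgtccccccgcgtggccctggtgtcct
Acss2, chr2:155517793-155518092, plus strand: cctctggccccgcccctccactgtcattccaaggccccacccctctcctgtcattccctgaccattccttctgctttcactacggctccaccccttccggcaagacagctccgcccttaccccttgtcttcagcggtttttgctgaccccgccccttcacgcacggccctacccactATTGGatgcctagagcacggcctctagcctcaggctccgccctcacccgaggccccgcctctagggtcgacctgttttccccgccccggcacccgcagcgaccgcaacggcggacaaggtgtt
Mid1ip1, chrX:10717115-10717414, plus strand: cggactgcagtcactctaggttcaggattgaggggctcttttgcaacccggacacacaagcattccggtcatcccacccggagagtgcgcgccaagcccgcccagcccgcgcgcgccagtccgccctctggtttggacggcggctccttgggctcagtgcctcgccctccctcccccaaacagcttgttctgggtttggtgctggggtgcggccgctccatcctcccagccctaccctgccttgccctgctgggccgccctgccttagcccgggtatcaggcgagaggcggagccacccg
Hmgcs1, chr13:119690101-119690400, plus strand: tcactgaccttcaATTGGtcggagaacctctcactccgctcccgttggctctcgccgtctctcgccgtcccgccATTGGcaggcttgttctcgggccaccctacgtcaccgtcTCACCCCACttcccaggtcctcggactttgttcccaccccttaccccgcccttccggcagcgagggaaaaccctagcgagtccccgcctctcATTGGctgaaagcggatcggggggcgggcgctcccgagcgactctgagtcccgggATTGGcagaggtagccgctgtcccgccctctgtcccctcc
In the Fasn window, CCAAT was found 3 times, starting 90, 62 and 59 bases before the transcript start, and the last 2 of these matches overlap on opposite strands. Acss2 held it once, 73 bases before the start, and the Mid1ip1 window held none of the 3 elements. That window lies inside the annotated span of Mid1ip1 (chrX:10715013-10719690), so the region before the first base of the span was not searched. Promoters were found for 25 of the 32 genes, 30 promoters in all. CCAAT was in 21 of the 30 (70.0%), against 37.4% of all 32851 promoters in the table. The E-box was in 4 of the 30 (13.3%), those of Hsd17b7, Insig1, Sc5d and Dhcr7, against 7.15% of all, and the sterol core in 1 (3.33%), against 1.24%. A match to these letters is a description of the sequence and not a binding site measured here. Scd1, Scd2, Fads1, Fdft1, Fdps, Sqle and Stard4 had no promoter in the table.

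None of the 18 sterol enzymes passed the edgeR test in pH_BMP2ADV590. Of them, 16 (88.9%) had a positive log2 fold change, against 50.3% of all genes tested, with a median of 0.14. For 6 of the 18 (33.3%) all pH_BMP2ADV590 libraries lay above all pH_BMP2ADV libraries, against 12.5% of all genes. An unadjusted p under 0.05 was reached by 4 of the 18 (22.2%), Lss, Hsd17b7, Ebp and Nsdhl, all with a positive value. The share of all genes tested was 21.2%, counted in either direction. DESeq2 and limma-voom each called Lss and Hsd17b7. Lss, which closes squalene epoxide into lanosterol, had 29.8, 33.0 and 30.2 CPM in pH_BMP2ADV590, 27.4, 19.98 and 24.4 CPM in pH_BMP2ADV20a, 26.1, 24.8 and 23.9 CPM in pH_BMP2ADV148b, and 21.6, 24.6 and 24.0 CPM in pH_BMP2ADV. The pH_BMP2ADV590 libraries were the 3 highest of the 12. The log2 fold change of Lss against pH_BMP2ADV was 0.41 (SE 0.130, adjusted p = 0.0523, edgeR), with 0.0495 in DESeq2 and 0.0497 in limma-voom. Leaving out pH_BMP2ADV20a replicate 1 or 2 also brought Lss under the threshold, at an adjusted p of 0.0418 without replicate 2 (edgeR). Hsd17b7, a ketone reductase of the later sterol steps, had 46.3, 45.7 and 44.0 CPM in pH_BMP2ADV590, 40.1, 44.4 and 42.3 CPM in pH_BMP2ADV20a, 47.5, 40.6 and 43.7 CPM in pH_BMP2ADV148b, and 32.5, 38.6 and 37.2 CPM in pH_BMP2ADV. Here the pH_BMP2ADV libraries were the 3 lowest of the 12 and the hybrid groups overlapped each other. Its log2 fold change in pH_BMP2ADV590 was 0.33 (adjusted p = 0.0526, edgeR), with 0.0420 in DESeq2 and 0.0457 in limma-voom.

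Further along the sterol route, Ebp, an isomerase of the sterol ring, averaged 81.7 ± 7.65 CPM in pH_BMP2ADV590 and 68.5 ± 5.97 CPM in pH_BMP2ADV (SD, n = 3 each; log2 fold change 0.25, adjusted p = 0.107, edgeR). Nsdhl, a dehydrogenase that helps remove methyl groups from lanosterol, averaged 77.1 ± 9.07 CPM in pH_BMP2ADV590 and 64.9 ± 7.44 CPM in pH_BMP2ADV, and these overlapped. Dhcr7, which catalyses a last reduction to cholesterol, had 15.6, 19.4 and 14.5 CPM in pH_BMP2ADV590 and 11.9, 13.2 and 11.5 CPM in pH_BMP2ADV. The Dhcr7 groups did not overlap, but its interval of 0.00 to 0.88 was wide and its adjusted p was 0.236 (edgeR). Hmgcs1, which makes HMG-CoA, averaged 238 ± 11.7 CPM in pH_BMP2ADV590 and 213 ± 17.7 CPM in pH_BMP2ADV (log2 fold change 0.16, 95% interval -0.01 to 0.34), and Mvk, mevalonate kinase, averaged 40.5 ± 2.86 CPM in pH_BMP2ADV590 and 39.0 ± 1.69 CPM in pH_BMP2ADV. Fdps, which makes farnesyl diphosphate, averaged 75.4 ± 1.16 CPM in pH_BMP2ADV590 and 76.4 ± 8.98 CPM in pH_BMP2ADV, with an interval of -0.24 to 0.21. Squalene epoxidase, Sqle, averaged 86.3 ± 6.14 CPM in pH_BMP2ADV590 and 79.4 ± 6.29 CPM in pH_BMP2ADV. Each of these 4 pairs of groups overlapped.

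Among the other sterol enzymes, the log2 fold change in pH_BMP2ADV590 against pH_BMP2ADV was 0.24 for Mvd, which makes isopentenyl diphosphate, 0.20 for Fdft1, squalene synthase, 0.12 for Cyp51, which demethylates lanosterol, and 0.12 for Msmo1, a sterol methyl oxidase. It was 0.09 for Acat2, which joins acetyl-CoA units, 0.03 for Pmvk, phosphomevalonate kinase, and 0.02 for Sc5d, a sterol desaturase. None of these 7 had an unadjusted p under 0.05, and their adjusted p-values were 0.288 to 0.936. The sterol reductase Tm7sf2 (3.17 to 6.26 CPM) and the isomerase Idi1 (1.59 to 5.11 CPM) were measured by as few as 31 and 15 counts in a library. Their intervals in pH_BMP2ADV590, -0.26 to 0.92 for Tm7sf2 and -0.79 to 0.77 for Idi1, leave changes of either sign possible. Over the 32 genes, 12 had all pH_BMP2ADV590 libraries above all pH_BMP2ADV libraries, 6 of them sterol and 6 fatty acid enzymes, where 12.5% of all genes did. All pH_BMP2ADV590 libraries lay below all pH_BMP2ADV libraries for 2 genes, Mid1ip1 and Stard4, where 12.5% of all genes did.

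**Figure D3:**
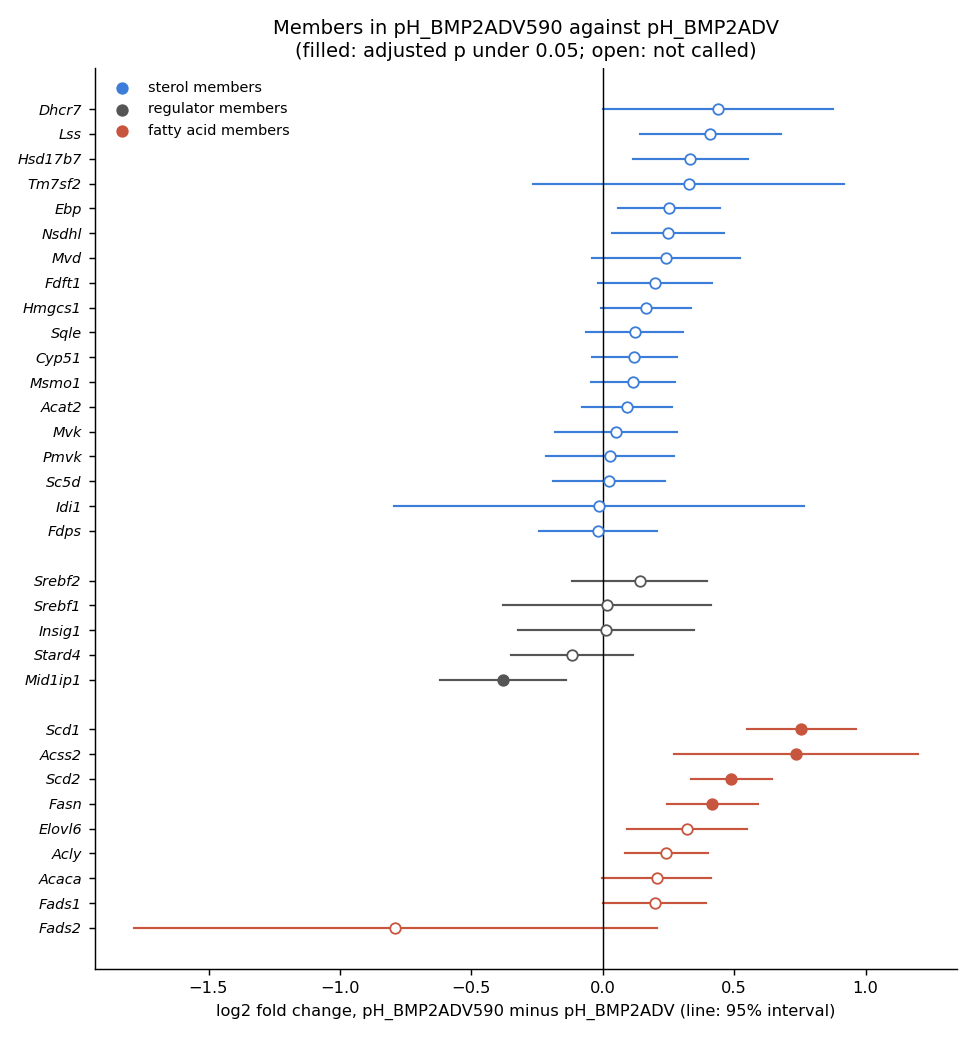
Log2 fold change of each of the 32 genes in pH_BMP2ADV590 against pH_BMP2ADV. The horizontal axis is the log2 fold change with its 95% interval as a line; filled points passed an adjusted p of 0.05 and open points did not; genes are grouped as sterol enzymes (top), regulators (middle) and fatty acid enzymes (bottom). Filled points are Scd1, Acss2, Scd2 and Fasn to the right of 0 and Mid1ip1 (-0.38) to the left, and the widest lines belong to the scarce genes Fads2, Idi1 and Tm7sf2.

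Of the 5 regulators, Mid1ip1 alone was called. Mid1ip1 (ENSMUSG00000008035, chrX:10715013-10719690, plus strand) had 39.3, 32.8 and 38.4 CPM in pH_BMP2ADV20a, 34.2, 29.6 and 27.0 CPM in pH_BMP2ADV148b, 31.3, 37.0 and 35.8 CPM in pH_BMP2ADV590, and 45.0, 43.8 and 46.5 CPM in pH_BMP2ADV. The pH_BMP2ADV libraries were the 3 highest of the 12, above every hybrid library. The log2 fold change against pH_BMP2ADV was -0.57 in pH_BMP2ADV148b (SE 0.118, adjusted p = 0.0419, edgeR) and -0.38 in pH_BMP2ADV590 (SE 0.116, adjusted p = 0.0432, edgeR). It was -0.29 in pH_BMP2ADV20a (SE 0.115, adjusted p = 0.376, edgeR), which did not pass. No pair of hybrid groups passed the test: -0.09 between pH_BMP2ADV590 and pH_BMP2ADV20a (95% interval -0.33 to 0.15), 0.20 between pH_BMP2ADV590 and pH_BMP2ADV148b (-0.05 to 0.44) and 0.28 between pH_BMP2ADV20a and pH_BMP2ADV148b (adjusted p = 0.529, edgeR). Both calls were fragile. The call in pH_BMP2ADV148b was lost without any 1 of the pH_BMP2ADV libraries, without pH_BMP2ADV148b replicate 2 or 3, pH_BMP2ADV20a replicate 1 or 3 or pH_BMP2ADV590 replicate 3 (adjusted p up to 0.238), and the log2 fold change over all 12 such fits was -0.67 to -0.50. For pH_BMP2ADV590 it was lost without any 1 of the pH_BMP2ADV libraries, without pH_BMP2ADV590 replicate 1 or 3 or pH_BMP2ADV20a replicate 3 (adjusted p up to 0.153), and the log2 fold change over all 12 such fits was -0.43 to -0.31. The call in pH_BMP2ADV590 was also lost with no filter on low counts (adjusted p = 0.0553) and with only the 2 groups fitted (0.0511). Without pH_BMP2ADV590 replicate 2 the value in pH_BMP2ADV590 was -0.43 (adjusted p = 0.0405, edgeR).

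The SREBP genes themselves gave no call. Srebf1, which encodes SREBP1a and SREBP1c, averaged 15.7 ± 4.69 CPM in pH_BMP2ADV590 and 15.7 ± 1.48 CPM in pH_BMP2ADV, with values of 20.2, 10.8 and 16.2 CPM in the pH_BMP2ADV590 libraries. Srebf2, which encodes SREBP2, averaged 98.7 ± 9.84 CPM in pH_BMP2ADV590 and 89.5 ± 19.7 CPM in pH_BMP2ADV. Insig1, which holds the SREBP precursor in the endoplasmic reticulum and is itself an SREBP target, averaged 23.9 ± 4.46 CPM in pH_BMP2ADV590 and 23.7 ± 4.41 CPM in pH_BMP2ADV. Their log2 fold changes were 0.01 for Srebf1, 0.14 for Srebf2 and 0.01 for Insig1, with 95% intervals of -0.38 to 0.41, -0.12 to 0.40 and -0.32 to 0.35. Each of these intervals allows a change either way. Stard4, a carrier of cholesterol between membranes, had 32.8, 28.9 and 33.4 CPM in pH_BMP2ADV590 and 33.6, 35.0 and 34.5 CPM in pH_BMP2ADV (log2 fold change -0.12, adjusted p = 0.621, edgeR).

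Summed over the 9 fatty acid enzymes, the level was 1146 ± 21.6 CPM in pH_BMP2ADV20a, 1111 ± 61.5 CPM in pH_BMP2ADV148b, 1387 ± 85.4 CPM in pH_BMP2ADV590 and 1037 ± 5.82 CPM in pH_BMP2ADV (SD, n = 3 each). All hybrid libraries, from 1046 CPM upwards, lay above the pH_BMP2ADV libraries, which reached 1044 CPM, and the pH_BMP2ADV590 libraries, from 1294 CPM upwards, lay above all others. Of the difference of 350.1 CPM between the pH_BMP2ADV590 and pH_BMP2ADV means, 83.5% came from the 4 called genes Scd1, Scd2, Fasn and Acss2, so the sum largely restates them. The 5 genes that were not called summed to 403 ± 34.2 CPM in pH_BMP2ADV590 and 345 ± 7.71 CPM in pH_BMP2ADV. The 18 sterol enzymes summed to 1266 ± 60.3 CPM in pH_BMP2ADV20a, 1306 ± 21.8 CPM in pH_BMP2ADV148b, 1356 ± 32.8 CPM in pH_BMP2ADV590 and 1227 ± 19.5 CPM in pH_BMP2ADV. The sterol sums of pH_BMP2ADV590 (1323 to 1389 CPM) and pH_BMP2ADV148b (1283 to 1326 CPM) overlapped each other. Both lay above those of pH_BMP2ADV (1216 to 1250 CPM), which pH_BMP2ADV20a (1197 to 1309 CPM) overlapped. The 5 regulators summed to 184 to 204 CPM in pH_BMP2ADV20a, 181 to 203 CPM in pH_BMP2ADV148b, 197 to 215 CPM in pH_BMP2ADV590 and 182 to 225 CPM in pH_BMP2ADV, and all groups overlapped. In bulk RNA, a change in the share of cells that express a gene and a change in its RNA per cell cannot be told apart. Other lists moved with pH_BMP2ADV590 as well: the chondrocyte markers summed to 5169 to 5808 CPM there and 2865 to 3585 CPM in pH_BMP2ADV, with 5 of 5 tested genes called as higher, and the mitosis markers summed to 976 to 1083 CPM there and 1158 to 1273 CPM in pH_BMP2ADV, with 2 of 7 called as lower, Aurka and Top2a. Of all genes tested, 4.37% were called as higher and 3.89% as lower in pH_BMP2ADV590 against pH_BMP2ADV. The chondrocyte and Aurka calls held without any 1 library, and the Top2a call was lost without pH_BMP2ADV590 replicate 1 or 3 or pH_BMP2ADV replicate 2 or 3 (adjusted p up to 0.138). With a replicate block or with only the 2 groups fitted, the Top2a call was also lost (edgeR, adjusted p up to 0.0555). Adipocyte markers summed to 39.3 to 62.3 CPM in pH_BMP2ADV590 and 47.1 to 51.8 CPM in pH_BMP2ADV, with 0 of 4 tested genes called in edgeR, DESeq2 or limma-voom and 1 at an unadjusted p under 0.05. The part of these cell states in the lipid gene values was not tested.

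**Figure D4:**
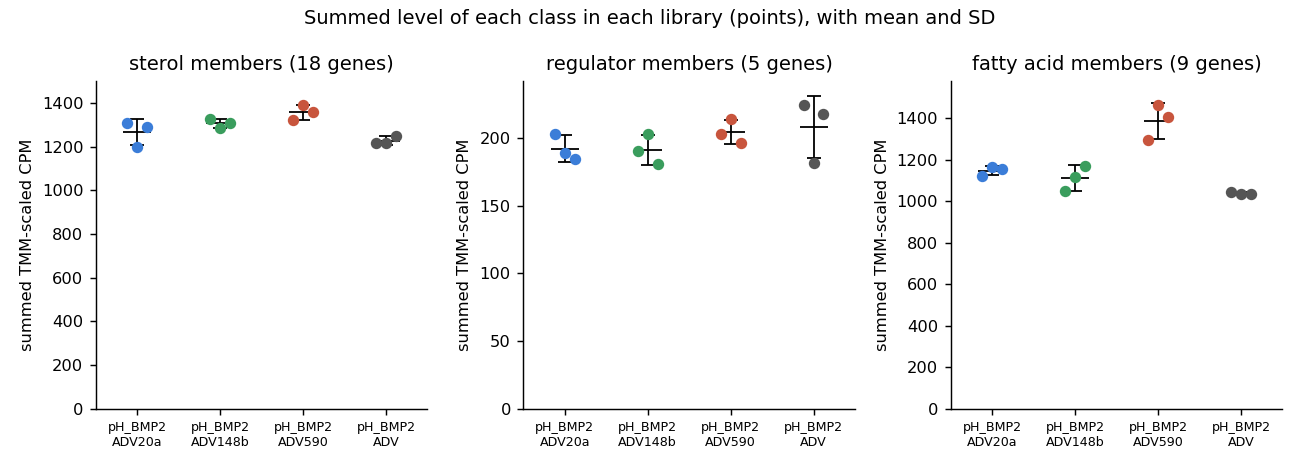
Summed level of the sterol enzymes (18 genes), regulators (5 genes) and fatty acid enzymes (9 genes) in each library. The vertical axes give summed TMM-scaled CPM and start at 0, points are libraries, and horizontal bars with whiskers are the mean and SD of 3 libraries per group. The fatty acid sum separates pH_BMP2ADV590 (1294 to 1462 CPM) from all other libraries. The sterol sums of pH_BMP2ADV590 (1323 to 1389 CPM) and pH_BMP2ADV148b (1283 to 1326 CPM) overlap each other. Both lie above those of pH_BMP2ADV (1216 to 1250 CPM), which pH_BMP2ADV20a (1197 to 1309 CPM) overlaps.

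In pH_BMP2ADV20a no gene was called, and the values were small. Acly had 127, 123 and 122 CPM in pH_BMP2ADV20a and 105, 109.7 and 105 CPM in pH_BMP2ADV, with no overlap (log2 fold change 0.22, SE 0.0765, adjusted p = 0.309, edgeR). Scd1 (0.23, adjusted p = 0.460) and Hsd17b7 (0.23, adjusted p = 0.479) were the other genes with a positive value at an unadjusted p under 0.05, and Mid1ip1 was the negative one. The fatty acid enzymes had a positive value in 8 of 9 cases, with a median of 0.14, the sterol enzymes in 11 of 18, with a median of 0.04, and the regulators in 0 of 5, with a median of -0.10. The median of all genes tested was 0.00, and 49.6% of them had a positive value. For 5 sterol enzymes, Pmvk, Sqle, Nsdhl, Sc5d and Dhcr7, the value was negative in pH_BMP2ADV20a and pH_BMP2ADV148b and positive in pH_BMP2ADV590, and none of these values was called. Sqle had -0.11 in pH_BMP2ADV20a, -0.06 in pH_BMP2ADV148b and 0.12 in pH_BMP2ADV590. The difference between pH_BMP2ADV590 and pH_BMP2ADV20a was 0.23 for Sqle (95% interval 0.04 to 0.41, adjusted p = 0.227, edgeR).

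In pH_BMP2ADV148b, 6 of the 32 genes (18.8%) had an unadjusted p under 0.05, against 8.43% of all genes tested, and 4 of them were sterol enzymes. Fdft1, squalene synthase, had 45.1, 42.6 and 42.8 CPM in pH_BMP2ADV148b, 36.7, 40.8 and 41.3 CPM in pH_BMP2ADV20a, 38.2, 37.9 and 42.6 CPM in pH_BMP2ADV590, and 35.3, 35.7 and 32.2 CPM in pH_BMP2ADV. Its pH_BMP2ADV libraries were the 3 lowest of the 12, but the log2 fold change of 0.34 in pH_BMP2ADV148b (SE 0.105, 95% interval 0.12 to 0.55) had an adjusted p of 0.266 (edgeR). The span of Fdft1 overlaps Ctsb, a cathepsin gene on the opposite strand with a log2 fold change of 0.16 in the same comparison (adjusted p = 0.638, edgeR), and whether reads were counted by strand is not stated in the labels. Fasn (0.26, adjusted p = 0.310), Hsd17b7 (0.29, adjusted p = 0.411), Mvd (0.29, adjusted p = 0.571) and Hmgcs1 (0.18, adjusted p = 0.564) also had an unadjusted p under 0.05. Of the 9 fatty acid enzymes 8 had a positive value, with a median of 0.10, as had 12 of the 18 sterol enzymes, with a median of 0.08, and 2 of the 5 regulators, with a median of -0.08. Of all genes tested, 49.9% had a positive value.

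The mature sequences of miR-20a and miR-148b, for which hybrid plasmids are named, are shown with the seed, bases 2 to 8, in capitals (RefSeq, GRCm38.p6), since the seed is the main part of a miRNA that pairs with its targets. The labels do not name the arm that each plasmid carries, and the usual guide arms are printed.
mmu-miR-20a-5p, chr14:115044183-115044205, plus strand: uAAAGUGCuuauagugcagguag
mmu-miR-148b-3p, chr15:103285185-103285206, plus strand: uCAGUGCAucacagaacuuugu
The complement of the miR-20a seed, GCACTTT, was in the longest annotated 3′ UTR of 3 of the 32 genes (9.38%), Stard4, Lss and Elovl6, against 15.03% of 11601 tested genes with a 3′ UTR. Examples follow with the match in capitals.
Lss, miR-20a match: ttggccatggtGCACTTTgtgccctctgc
Elovl6, miR-20a match: atgcttccaaaGCACTTTagtctcagtgt
In pH_BMP2ADV20a, Lss had a log2 fold change of 0.04, Elovl6 of 0.15 and Stard4 of -0.06, none of them called. The 3 had a median of 0.04, against -0.02 for all 1744 genes with a match. Among genes without a match the median was 0.04 for 29 of the 32 and -0.003 for all 9857. The complement of the miR-148b seed, TGCACTG, was in 5 of the 32 (15.6%), Srebf1, Sc5d, Lss, Insig1 and Idi1, against 15.7% of all.
Srebf1, miR-148b match: attgcagaggcTGCACTGgcccgatggca
Insig1, miR-148b match: agtcagggttcTGCACTGcgatgctggac
In pH_BMP2ADV148b the log2 fold change was -0.08 for Srebf1, -0.08 for Sc5d, 0.10 for Lss, 0.04 for Insig1 and -0.53 for the scarce Idi1 (95% interval -1.35 to 0.29), none of them called. Their median was -0.08, against -0.03 for all 1826 genes with a match. Among genes without a match the median was 0.09 for 27 of the 32 and 0.002 for all 9775. The part of the seed matches in these values was not tested. Mid1ip1, the 1 called gene in pH_BMP2ADV148b, held no match to either seed in its longest 3′ UTR. The sequence of miR-590 was not used here.

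The hybrid groups were also compared with each other. These comparisons use the same pH_BMP2ADV590 libraries, in which Scd1 and Scd2 were already seen to lie above all other libraries. Their results are therefore not separate evidence. Scd1 was higher in pH_BMP2ADV590 than in pH_BMP2ADV20a (log2 fold change 0.53, SE 0.0989, adjusted p = 0.00560, edgeR) and higher than in pH_BMP2ADV148b (0.61, 95% interval 0.40 to 0.82, adjusted p = 0.000477, edgeR). For Scd2 the values were 0.37 against pH_BMP2ADV20a (SE 0.0750, adjusted p = 0.00822, edgeR) and 0.46 against pH_BMP2ADV148b (SE 0.0753, adjusted p = 0.000477, edgeR). These were 2 of the 32 genes in each comparison, where 2.17% of all genes were called between pH_BMP2ADV590 and pH_BMP2ADV20a and 4.43% between pH_BMP2ADV590 and pH_BMP2ADV148b. Against pH_BMP2ADV148b both calls held without any 1 library. Against pH_BMP2ADV20a, the Scd1 call was lost without pH_BMP2ADV20a replicate 1 or 2 (adjusted p up to 0.0664) and the Scd2 call without pH_BMP2ADV20a replicate 1 (0.109). Cell markers differed between the same groups. The chondrocyte list summed to 5169 to 5808 CPM in pH_BMP2ADV590, 3636 to 4041 CPM in pH_BMP2ADV20a and 2976 to 4082 CPM in pH_BMP2ADV148b. With edgeR its 5 tested genes were called as higher in pH_BMP2ADV590 against both. The adipocyte list summed to 39.3 to 62.3 CPM in pH_BMP2ADV590, 30.9 to 46.5 CPM in pH_BMP2ADV20a and 49.0 to 55.6 CPM in pH_BMP2ADV148b, with Plin1 at 0. Of its 4 tested genes, Fabp4, a fatty acid carrier, was called as higher in pH_BMP2ADV590 than in pH_BMP2ADV20a (1.17, adjusted p = 0.0368, edgeR) and none against pH_BMP2ADV148b with edgeR, DESeq2 or limma-voom (1 at an unadjusted p under 0.05). Some of these marker calls were lost without 1 library. Against pH_BMP2ADV20a, without pH_BMP2ADV20a replicate 2 those of Col2a1, Sox9, Acan and Fabp4 were lost, without replicate 1 those of Sox9, Acan and Fabp4, and without pH_BMP2ADV590 replicate 1 those of Acan and Fabp4. That of Fabp4 was also lost without pH_BMP2ADV590 replicate 3, pH_BMP2ADV148b replicate 2 or pH_BMP2ADV replicate 2 (adjusted p up to 0.226 for Fabp4 and 0.167 for Acan). Against pH_BMP2ADV148b, the Acan call was lost without pH_BMP2ADV148b replicate 1 or 2 (up to 0.132). DESeq2 did not call Acan against either group (adjusted p = 0.143 against pH_BMP2ADV20a and 0.0889 against pH_BMP2ADV148b). The Fabp4 call was also lost with a replicate block and with only the 2 groups fitted (edgeR, adjusted p up to 0.0874). The part of these cell states in the desaturase values was not tested. Fasn did not pass between pH_BMP2ADV590 and pH_BMP2ADV148b (0.16, 95% interval -0.01 to 0.33, adjusted p = 0.346, edgeR) or between pH_BMP2ADV590 and pH_BMP2ADV20a (0.25, 0.08 to 0.42, adjusted p = 0.135, edgeR). Acss2 was 0.71 higher on the log2 scale in pH_BMP2ADV590 than in pH_BMP2ADV20a (adjusted p = 0.107, edgeR) and 0.61 higher than in pH_BMP2ADV148b (0.143), without passing. No gene of the 32 was called between pH_BMP2ADV20a and pH_BMP2ADV148b with edgeR, DESeq2 or limma-voom, and 0.559% of all genes were called. At an unadjusted p under 0.05 the count was 1 of 32, against 7.79% of all genes tested. In the test of any difference among the 4 groups, 4 of the 32 were called, Scd1, Scd2, Fasn and Mid1ip1, against 6.25% of all genes.

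Genes that surround these routes were counted from 5 further lists in pH_BMP2ADV590 against pH_BMP2ADV. Of all genes tested, 4.37% were called as higher and 3.89% as lower there, and 21.2% had an unadjusted p under 0.05. Of 10 genes for the processing and turnover of SREBPs, such as Scap, Mbtps1 and Insig2, none was called with edgeR, DESeq2 or limma-voom, and 1 had an unadjusted p under 0.05. The median log2 fold change of that list was -0.06. Of 15 other sterol and isoprenoid genes, Cyb5r3, a reductase that passes electrons to desaturases and sterol oxidases, was higher (0.28, adjusted p = 0.0389) and Por, which passes electrons to cytochromes P450, was lower (-0.40, adjusted p = 0.0451). Both calls were lost without pH_BMP2ADV590 replicate 2 or 3, any 1 pH_BMP2ADV20a library, pH_BMP2ADV148b replicate 2 or pH_BMP2ADV replicate 2. That of Cyb5r3 was also lost without pH_BMP2ADV replicate 1 (adjusted p up to 0.223), and that of Por without pH_BMP2ADV590 replicate 1 or pH_BMP2ADV replicate 3 (up to 0.336). Both calls were lost with a replicate block and with only the 2 groups fitted, and that of Por with limma-voom. In these settings the adjusted p reached 0.122 for Cyb5r3 and 0.0833 for Por.

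Cholesterol storage and export genes gave 3 calls among 10 tested, where 8.26% of all genes tested were called in either direction. Soat1, which esterifies cholesterol for storage, averaged 161 ± 12.7 CPM in pH_BMP2ADV590 and 223 ± 33.9 CPM in pH_BMP2ADV, a log2 fold change of -0.47 (SE 0.101, adjusted p = 0.00399, edgeR) that held without any 1 library. Soat1 was also lower in pH_BMP2ADV590 than in pH_BMP2ADV20a (-0.47, adjusted p = 0.0132) and pH_BMP2ADV148b (-0.50, adjusted p = 0.00314). The difference from pH_BMP2ADV20a was lost without pH_BMP2ADV590 replicate 3 or pH_BMP2ADV20a replicate 1 or 2 (adjusted p up to 0.0805). Abca1, which exports cholesterol, averaged 11.9 ± 3.24 CPM in pH_BMP2ADV590 and 7.001 ± 0.280 CPM in pH_BMP2ADV (0.77, adjusted p = 0.0271, edgeR), a call lost without any 1 of the pH_BMP2ADV libraries or pH_BMP2ADV590 replicate 1 (up to 0.218). Lipa, the lysosomal lipase that frees cholesterol, averaged 181 ± 3.37 CPM in pH_BMP2ADV590 and 151 ± 8.91 CPM in pH_BMP2ADV (0.26, adjusted p = 0.0392, edgeR). The Lipa call was lost without any 1 library of these 2 groups, pH_BMP2ADV20a replicate 3 or pH_BMP2ADV148b replicate 2 (up to 0.187). It was also lost with no filter on low counts, with a replicate block and with only the 2 groups fitted (edgeR, adjusted p up to 0.0801). Abcg1, Cyp27a1 and Cyp7b1 of the same list had 0 counts in all libraries.

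Other fatty acid, triglyceride and phospholipid genes gave 3 calls among 20 tested, all higher in pH_BMP2ADV590, where 4.37% of all genes were called as higher. Elovl5, which lengthens polyunsaturated fatty acids, averaged 176 ± 10.9 CPM in pH_BMP2ADV590 and 138 ± 5.98 CPM in pH_BMP2ADV (0.35, adjusted p = 0.0183, edgeR). Tecr, the last enzyme of the elongation cycle, averaged 144 ± 18.5 CPM in pH_BMP2ADV590 and 108 ± 16.2 CPM in pH_BMP2ADV (0.41, adjusted p = 0.0219, edgeR). Agpat2, which makes phosphatidic acid, averaged 34.3 ± 3.69 CPM in pH_BMP2ADV590 and 24.5 ± 2.54 CPM in pH_BMP2ADV (0.48, adjusted p = 0.0151, edgeR). All 3 calls were lost without pH_BMP2ADV replicate 2 or 3, that of Elovl5 also without pH_BMP2ADV590 replicate 1, that of Tecr without pH_BMP2ADV590 replicate 2 and that of Agpat2 without pH_BMP2ADV590 replicate 2 or 3 (adjusted p up to 0.0962 for Elovl5, 0.149 for Tecr and 0.0871 for Agpat2). Agpat2 was the 1 gene of the 5 lists called in pH_BMP2ADV148b, at 36.7 ± 2.86 CPM against 24.5 ± 2.54 CPM in pH_BMP2ADV (0.58, adjusted p = 0.0438, edgeR), and that call was lost in 10 of 12 fits without 1 library, all but those without pH_BMP2ADV590 replicate 1 or 2 (up to 0.262). It was also lost with limma-voom and with a replicate block in edgeR (adjusted p up to 0.0895). In pH_BMP2ADV148b, 0.212% of all genes tested were called as higher. None of the 13 tested genes of fatty acid oxidation was called in pH_BMP2ADV590 with edgeR, DESeq2 or limma-voom, and 1 had an unadjusted p under 0.05. In pH_BMP2ADV20a no gene of the 5 lists was called by any of these tools, and 1, 2, 2, 4 and 2 genes had an unadjusted p under 0.05 in the lists as ordered above. Of all genes tested, 9.87% had such a p in pH_BMP2ADV20a.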

How the data were processed

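Libraries of 3′ ends (QuantSeq 3′ mRNA FWD, per the labels' protocols) were read in 12 samples of 4 groups. The deposited values are raw counts per gene; per the submitters' processing notes, FastQC 0.11.5, STAR 2.5.2a and HTSeq 0.6.0 were used on GRCm38. Counting mode, strand setting and annotation release: not given in the sources used here. Reads come from transcript ends, so levels were not divided by transcript length, and sums over genes add the CPM as they are. Lines holding no gene (52.2% to 54.4% of records, mostly reads with several alignments) were left out, so related genes such as Scd1 and Scd2 are measured by the reads that tell them apart. Symbols and positions came from GENCODE M21.

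Counts were fitted with edgeR 4.0.16 in R 4.3.3 (TMM, filterByExpr, quasi-likelihood F-test, 1 mean per group over all 12 libraries, 8 residual degrees of freedom), which tested 13229 genes (biological coefficient of variation 0.117). Benjamini-Hochberg adjustment ran over all of them, and calls were made at 0.05. Levels are TMM-scaled CPM. The fit was run on simulated data with the same spread for every gene. The smallest simulated fold change was larger than those of several genes here, among them Fasn, Scd2, Mid1ip1, Acly, Lss and Hsd17b7. That run therefore does not cover changes of their size. Alternatives were DESeq2 1.42.0, limma-voom (limma 3.58.1), DESeq2 size factors, no filter, only the 2 groups compared, a replicate block, totals without Gm42418 and mitochondrial transcripts, and leaving out each library. The labels do not say that replicates were separate cultures, so p-values may measure technical spread. The members, further lists and naming rule (all members, and called genes of each further list) were chosen with earlier results of these data known.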

Additional observations from a re-analysis of the deposited data

How the results depend on the processing

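Scd1, Scd2 and Fasn kept their calls in pH_BMP2ADV590 against pH_BMP2ADV in all 19 alternatives, with log2 fold changes of 0.66 to 0.81, 0.47 to 0.51 and 0.34 to 0.48. The number of genes called there was 5, with 8 in DESeq2 and 8 in limma-voom, which added Acly, Lss and Hsd17b7, and 3 when only the 2 groups were fitted. With 1 library left out it was 3 to 6, and 3 (Fasn, Scd1 and Scd2) without pH_BMP2ADV590 replicate 3, pH_BMP2ADV20a replicate 3 or any 1 pH_BMP2ADV library. Likewise the count was 0 to 1 in pH_BMP2ADV148b against pH_BMP2ADV, 0 to 2 in pH_BMP2ADV590 against pH_BMP2ADV20a (0 without pH_BMP2ADV20a replicate 1) and 2 to 5 for any difference among the 4 groups (2, Scd1 and Scd2, without pH_BMP2ADV replicate 3). No sign of pairing by replicate number was seen. Deviations of same-numbered libraries correlated at -0.113 to 0.0715, and those of differently numbered libraries of different groups at -0.0905 to 0.115. With the replicate block the count was 3 in pH_BMP2ADV590 and 0 in pH_BMP2ADV148b: the calls of Mid1ip1 in pH_BMP2ADV148b (adjusted p = 0.0815) and of Mid1ip1 (0.0698) and Acss2 (0.0540) in pH_BMP2ADV590 were lost. The cause of these changes was not tested. Fits that left out 1 library or held only the 2 groups compared also had fewer libraries. No log2 fold change of the 32 genes that was called changed sign. Intervals of the scarcest genes (Acss2, Tm7sf2, Idi1, Fads2) are set by few counts, and reads without molecular tags are not independent molecules.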
